A study of Mus musculus with 36 samples.

Results

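The comparison described here set mouse embryonic fibroblasts held at 600 mOsm for 2 h against unstressed fibroblasts. It used 8 of the 36 libraries of the series, chosen by the osmolarity, the time and the library type that their labels give: for each group, 2 libraries of ribosome footprints (Ribo-seq) and 2 of cytoplasmic RNA (RNA-seq). All cells were of the mouse strain C57BL/6J and were grown in the same medium, which was the unstressed state. Sorbitol, a sugar alcohol, was added to raise the osmolarity. The 500 mOsm and 700 mOsm groups, also held for 2 h and with 4 libraries each, stand beside some results. The labels do not say whether the 2 libraries of a group came from separate cultures, and the p-values speak only of how far these particular libraries lie apart, which may be technical.

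Hyperosmotic medium draws water out of cells, which shrink and take up or make small organic solutes to regain volume. Mammalian cells under such stress reduce the start of translation, and ribosome profiling reads which mRNAs still carry ribosomes: the stretch of mRNA inside each ribosome is protected from nuclease, sequenced and counted. Set against the amount of the same mRNA, the footprints give its translational efficiency. Efficiency differs widely among mRNAs, and the regions outside the coding sequence, the untranslated regions at both ends, hold many of the elements that control translation and mRNA decay.

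The lists name transcripts by Ensembl transcript identifier only, and no table used here pairs those identifiers with genes. No gene is therefore named, the fibroblast identity was not checked against marker genes, and no sequence is shown. Transcripts are described by properties that could be read from the deposited values: coding length, non-coding length (transcript length minus coding length), RNA and footprint level. Both assays were scaled on abundant transcripts listed in all libraries of the assay, taking the typical one of these as unchanged. A value is therefore relative, and a fall in translation of the whole cell cannot be seen in it. In the same way, fewer transcripts per cell and fewer cells with the transcript cannot be told apart in these bulk samples.

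Footprint libraries of unstressed cells held 7261234 and 7593983 reads and those of 600 mOsm 2702679 and 2283553. RNA libraries held 55262396 and 39748466 reads in unstressed cells and 28809238 and 38074467 at 600 mOsm. The 2 footprint libraries of a group differed by little more than sampling noise, with a chi-square per degree of freedom of 1.05 in unstressed cells and 1.07 at 600 mOsm, and were counted as 1 sample. Footprint and efficiency changes are thus described by size, with no replicate error and no test. The RNA libraries of a group did differ, with 47.1 in unstressed cells and 6.32 at 600 mOsm, and RNA was tested with n = 2. The wide gap between the 2 unstressed RNA libraries bears on every RNA count below.

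At 600 mOsm footprints shifted far more than RNA did. The log2 footprint change over 8849 transcripts had a median of -0.41, quartiles of -1.53 and 0.32, and an SD across transcripts of 1.28. The log2 RNA change over 9275 transcripts had a median of 0.00, quartiles of -0.16 and 0.14, and an SD of 0.28. The footprint distribution reached further down than up: its 5th percentile was -3.08 and its 95th 0.92, and 1555 transcripts were at least 4-fold lower against 9 at least 4-fold higher. No transcript was 4-fold lower in RNA, and 2 were 4-fold higher. All changes were taken on log2(scaled value + 1), a scale that makes the change of low transcripts look smaller than it is.

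**Figure D1:**
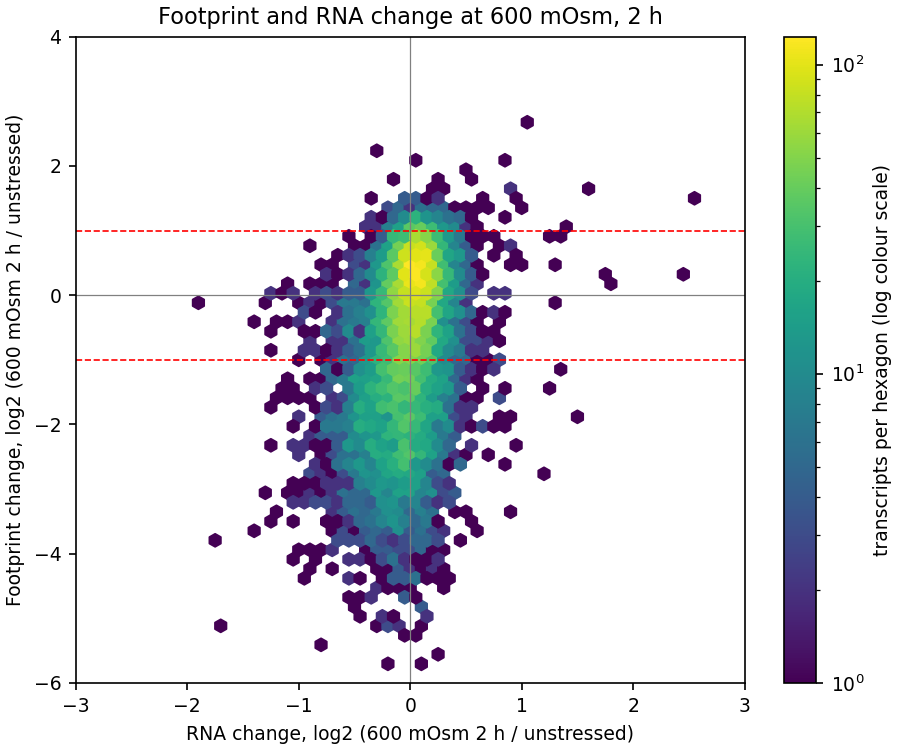
Log2 change in RNA (horizontal) and in footprints (vertical) between 600 mOsm for 2 h and unstressed cells, for 8446 transcripts kept in both assays; colour gives transcripts per hexagon on a log scale and dashed lines mark 2-fold footprint changes. The cloud is narrow in RNA (quartiles -0.16 and 0.14 over all 9275 tested) and long in footprints, with a tail toward low footprints.

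At least 2-fold lower footprints were seen for 3132 transcripts, 35.4% of those compared, and at least 2-fold higher ones for 331, which is 3.74%. Setting library 1 against library 1 and library 2 against library 2 separately, 2830 transcripts were at least 2-fold lower in both pairs and 213 higher in both. As the 2 libraries of a group count as 1 sample, this speaks of read sampling only. Translational efficiency, for which the RNA change was subtracted from that of the footprints, was at least 2-fold lower for 2985 of 8446 transcripts (35.3%) and higher for 210 (2.49%). Among the 1523 most read transcripts, those with 1000 or more unstressed reads on average, the footprint change still ran from -5.50 to 1.36, with a median of -0.16. In that set 388 were at least 2-fold lower and 29 higher. Of the 6898 with at least 100 unstressed reads, 2523 (36.6%) were lower and 186 (2.7%) higher by that measure. The upward side depended on the scaling: with the RPKM values as deposited, 513 transcripts were 2-fold higher, because the scaling lowered the 600 mOsm values by 0.12 on the log2 scale against unstressed cells.

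Transcripts with 2-fold lower footprints mostly kept their RNA. Of the 3132, RNA was measured for 3067, with a median RNA change of -0.09 and quartiles of -0.29 and 0.07. In the RNA test 588 of the 3067 fell and 89 rose, beside 845 and 359 of all 9275 tested. The 331 with higher footprints had a median RNA change of 0.10 over the 271 with RNA. The same groups at the other osmolarities, which share the unstressed libraries, read as follows. With 500, 600 and 700 mOsm in turn, the lower group had median footprint changes of -0.92, -1.99 and -2.22, and the higher group 0.49, 1.14 and 2.0. Values were divided by scale factors whose log2 minus that of unstressed cells was 0.08, 0.12 and -0.47 in the same order. The scaling thus raised footprints at 700 mOsm, here and below, and lowered them at 500 and 600 mOsm.

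Some transcripts left the footprint lists altogether. Of 6921 transcripts with at least 100 reads on average in unstressed cells, 87 were unlisted in both 600 mOsm libraries and 179 in one of them. The lists hold almost no transcript under about 5 reads, so unlisted means too few reads for listing and not an absence of ribosomes. The 87 had 100.5 to 369 unstressed reads, with a median of 139. Their RNA was still measured: their median level was 11.7 scaled FPKM in unstressed cells and 9.83 at 600 mOsm, the median log2 change was -0.18, and none was 2-fold lower. In the RNA test 26 of them (29.9%) fell and 2 (2.30%) rose, beside 9.11% and 3.87% of all transcripts tested. Set against all 8446 transcripts kept in both assays, the 87 had a median non-coding length of 1849 against 1112 nt and a median unstressed log2 efficiency of -0.10 against 0.64. A transcript with few unstressed reads drops under the listing limit more readily, and the 87 were not matched to the others by reads. The part of this choice in their low efficiency was not tested. Thinned to the same 2283553 reads, unstressed libraries listed 9594 and 9617 transcripts and the 600 mOsm libraries 8837 and 8763, so the lists at 600 mOsm were shorter at equal depth too.

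How efficiently a transcript was translated before the stress went along with its footprint change. Efficiency was taken from the first unstressed library of each assay and the change was measured against the second unstressed footprint library, so that the 2 values share no library. Transcripts were split into 5 equal groups, here called quintiles. The quintile with the lowest efficiency had a median footprint change of -1.44 between quartiles at -2.32 and -0.47. Its efficiency went up to a ratio of 0.913, taken as scaled RPKM + 1 over scaled FPKM + 1. Of its 1690 transcripts 61.4% were at least 2-fold lower. The medians of the next quintiles were -0.86, -0.39 and -0.10. The highest quintile, from a ratio of 2.75 up, had a median of 0.14, with 16.6% at least 2-fold lower and 5.39% at least 2-fold higher. Medians of RNA in the same quintiles ran only from -0.07 to 0.05. At 500 mOsm, against the same unstressed libraries, the lowest and highest quintiles had footprint medians of -0.80 and 0.07. At 700 mOsm the second quintile was the lowest, with -1.39 against -1.19 in the first, and the highest quintile had -0.03. The 700 mOsm footprint libraries held only 734083 and 909760 reads, and unlisted transcripts were set to 0. Low footprints could therefore fall only so far, and the part of this in the order was not tested.

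The level of a transcript before the stress gave class medians that lay closer together than those of efficiency. By unstressed footprint level, split over the 2 unstressed libraries in the same way, the quintiles from lowest to highest had median footprint changes of -0.77, -0.71, -0.57, -0.38 and -0.01. That order rests on the filter on low values: with no filter the lowest quintile had -0.25 and the second -0.88, and with at least 100 unstressed reads the lowest had -1.10. By unstressed RNA level there was no order: the lowest and highest quintiles had -0.20 and -0.23, and the 3 quintiles between had -0.60, -0.62 and -0.71. The lowest of these had -0.02 with no filter, -0.43 with at least 100 unstressed reads and -0.12 without unstressed replicate 1.

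Longer coding sequence and longer non-coding sequence also went with lower footprints at 600 mOsm. The 173 transcripts of up to 100 codons had a median of 0.42 for the footprint change, between quartiles at -0.14 and 0.73, while the 348 of over 1600 codons had -1.14, between quartiles at -1.90 and -0.11. With no filter on low values these medians were 0.21 and -0.65, and the class of 801 to 1600 codons, at -0.75, was then the lowest. At least 2-fold lower footprints were found in 14.5% of the first class and 53.2% of the last. For non-coding length, the 1913 transcripts of up to 500 nt had a median of -0.07 with 23.5% at least 2-fold lower, and the 2283 of over 2000 nt had -0.86 with 47.7%. The 2 classes between had -0.31 and -0.61. Quartiles of neighbouring classes overlapped throughout, so a class says little of a single transcript.

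**Figure D2:**
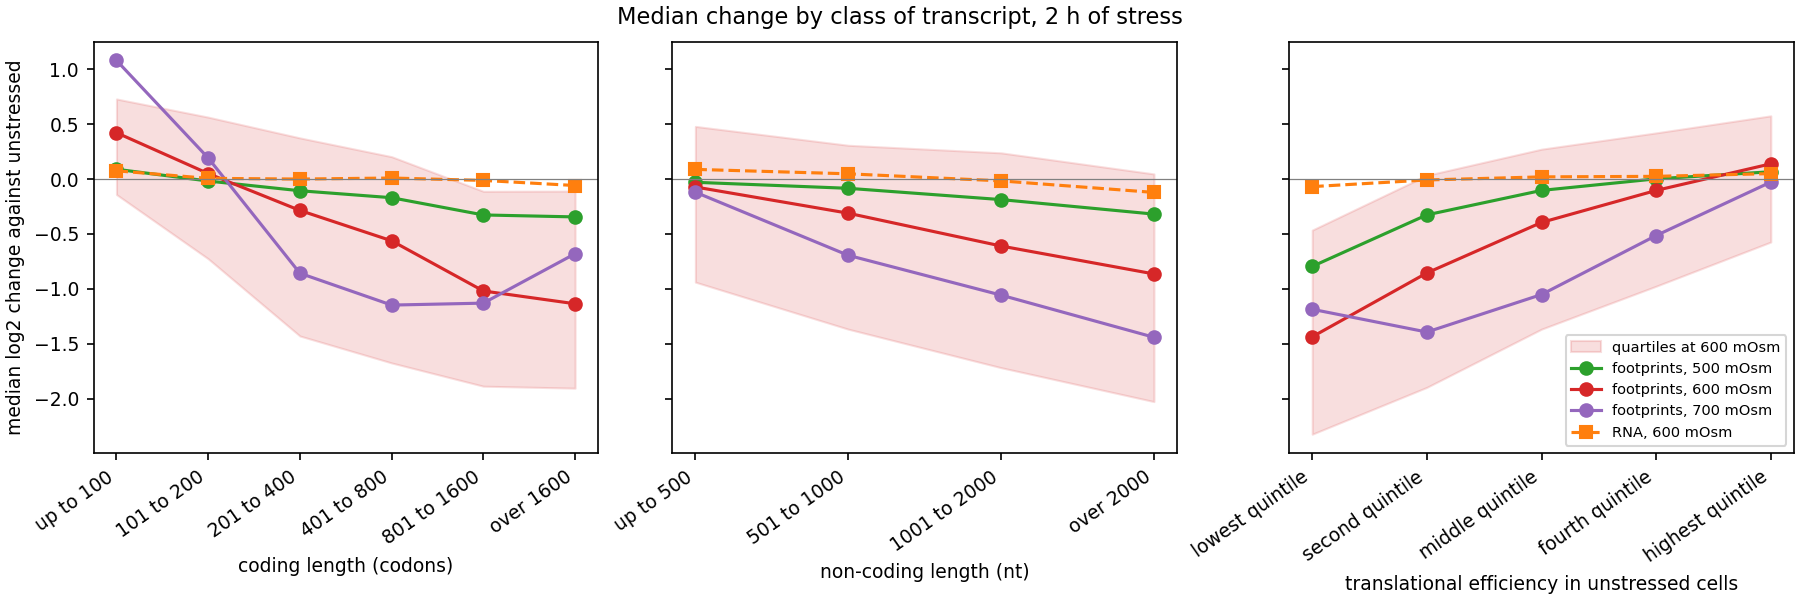
Median log2 change against unstressed cells (vertical) by coding length, non-coding length and unstressed translational efficiency, for footprints at 500, 600 and 700 mOsm and for RNA at 600 mOsm; the band gives the quartiles of footprints at 600 mOsm. At 600 mOsm the footprint medians run from 0.42 down to -1.14 with coding length, from -0.07 to -0.86 with non-coding length and from -1.44 up to 0.14 with efficiency, and RNA medians stay near 0.

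The 3 properties are tied to each other: the median coding length was 686.5 codons in the lowest efficiency quintile and 227 in the highest. Split by both, non-coding length kept its order within every quintile of efficiency. In the lowest quintile, the median footprint change was -0.86 for up to 500 nt, -1.24 and -1.64 for the next classes, and -1.83 for over 2000 nt, where 77.2% of 456 transcripts were at least 2-fold lower. In the highest quintile it was 0.41, 0.23, 0.10 and -0.12, with 7.87% at least 2-fold lower in the first class and 23.8% in the last. The order within quintiles was also kept with no filter, with at least 100 unstressed reads and with values as deposited, where the class over 2000 nt in the highest quintile had 0.0015.

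Coding length did not keep its order in this way within quintiles of efficiency. Within the lowest efficiency quintile, the median was -0.51 for 101 to 200 codons (75 transcripts), -1.60 for 201 to 400, -1.53 for 401 to 800, -1.49 for 801 to 1600 and -1.19 for over 1600. Within the second quintile it stayed between -0.94 and -0.78 from 101 to 1600 codons and was -1.17 for the 78 transcripts above. With no filter on low values the longest class of this quintile had -0.21 and that of 101 to 200 codons -0.36, the smallest changes of its classes with 20 or more transcripts. In the highest quintile the order was kept from 0.47 for up to 100 codons (140 transcripts) through 0.29, 0.03 and -0.20 to -0.35 for 801 to 1600 (45 transcripts). Split by both lengths, coding length kept its order for 501 to 1000 nt, from 0.42 to -0.98, and for 1001 to 2000 nt. It did not for up to 500 nt, with -0.69 for 801 to 1600 codons and -0.58 above. Nor did it for over 2000 nt, with -0.29 up to 100 codons and -0.11 for 101 to 200. Non-coding length kept its order up to 1600 codons. Above that it had -1.37 for 1001 to 2000 nt and -1.35 for over 2000 nt. These are descriptions of 1 sample against 1, and no interaction was tested.

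**Figure D3:**
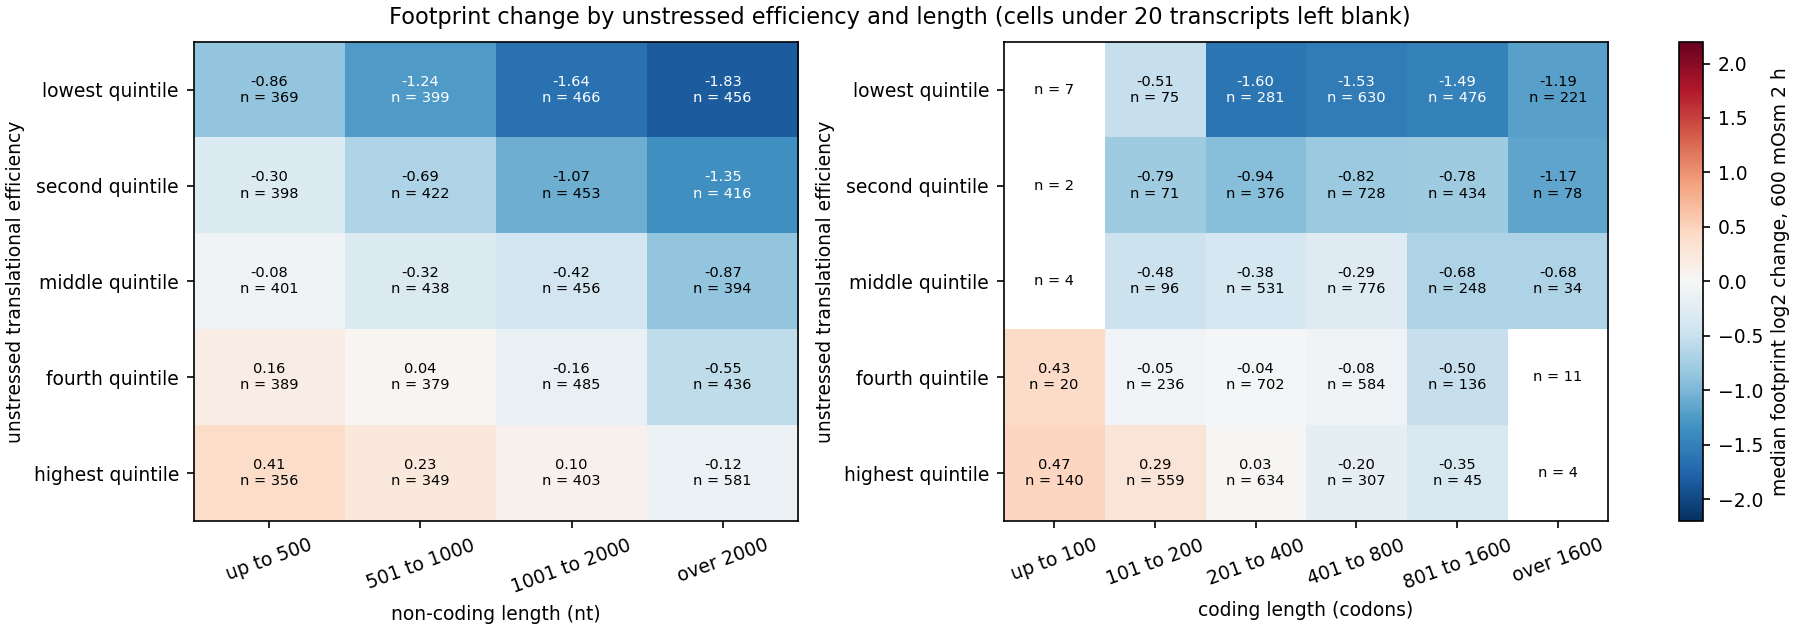
Median log2 footprint change at 600 mOsm against unstressed cells (colour and number) for transcripts split by unstressed translational efficiency (rows) and by non-coding length (left) or coding length (right); n is the number of transcripts, and cells under 20 are blank. Along each row on the left the value goes down, in the lowest quintile from -0.86 to -1.83, while the rows of the lowest quintiles on the right have no such order.

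The makeup of the footprint libraries moved accordingly. Transcripts of up to 200 codons held 20.4% of the footprint reads in both unstressed libraries and 26.3% and 26.4% at 600 mOsm. The 500 mOsm libraries both had 21.1%, and the 700 mOsm pair 36.6% and 36.4%. Those of over 800 codons held 17.96% and 17.94%, then 16.6% and 16.7%, then 13.1% in both, then 9.09% and 9.07%, in the order of osmolarity. The 2 libraries of a group lay close together, and no groups overlapped. The RNA libraries changed little by the same measure at 600 mOsm. Transcripts of over 800 codons held 22.3% and 22.9% of the RNA reads in unstressed cells and 23.5% and 23.6% at 600 mOsm. Those of up to 200 codons held 15.1% and 15.0%, then 14.8% in both. At 700 mOsm the RNA shares moved too, to 19.0% and 20.9% over 800 codons and 18.2% and 17.5% up to 200 codons.

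RNA changes were small and mostly downward among those past the threshold of an adjusted p of 0.05. Of 9275 transcripts, 359 rose (3.87%) and 845 fell (9.11%), by limma with Benjamini-Hochberg adjustment. The median log2 change was 0.41 among those that rose and -0.51 among those that fell, and 19 of the first (0.205% of all tested) and 43 of the second (0.464%) passed 2-fold. The counts rest on the unstressed libraries: leaving out unstressed replicate 1, 81 rose and 269 fell, and leaving out replicate 2, 333 rose and 508 fell. With equal weights for all libraries 880 rose and 1405 fell.

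The transcripts that fell in RNA had long non-coding sequence. Of the 2283 transcripts with over 2000 nt outside the coding sequence, 18.9% fell and 1.49% rose, against 3.97% and 5.54% of the 1913 with up to 500 nt. The 2 classes between had 4.03% and 9.37% that fell. The median RNA change went from 0.09 in the shortest class to 0.05, -0.02 and -0.12 in the longest. Against unstressed replicate 1 alone, the shortest and longest classes had 0.08 and -0.17, and against replicate 2 alone 0.08 and -0.09. The difference between these classes was thus smaller without unstressed replicate 1, and the shares that fell rest on both unstressed libraries. At 500 mOsm, which shares the unstressed libraries, the shortest and longest classes had medians of 0.01 and -0.06, and at 700 mOsm 0.27 and -0.45.

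Coding length went with RNA calls in both directions. Of the 348 transcripts of over 1600 codons, 15.8% rose and 22.7% fell, while of the 2524 of 201 to 400 codons 1.47% rose and 7.53% fell. The median RNA change of the longest class was nonetheless only -0.06. Read numbers moved with these classes: the median of the reads summed over both unstressed RNA libraries was 8402 in the longest coding class against 3893 in the class of 201 to 400 codons, and 5987 against 3724 between the longest and shortest non-coding classes. The part of read number in the shares was not tested.

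**Figure D4:**
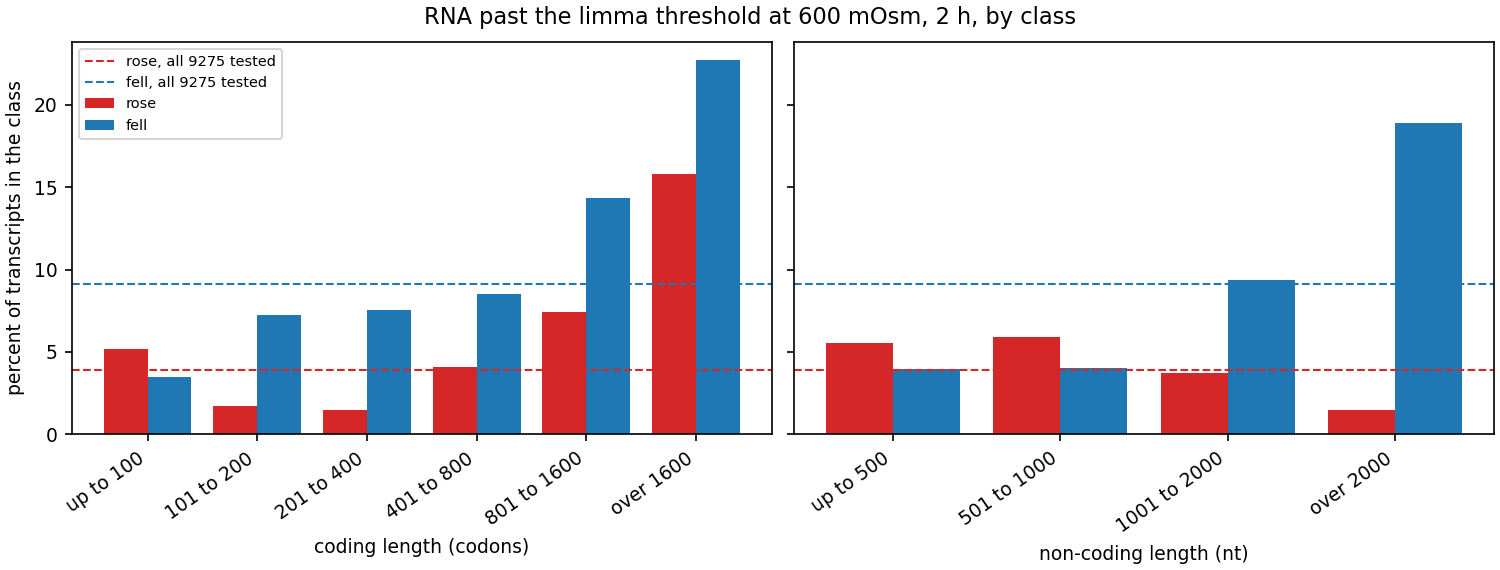
Percent of transcripts whose RNA rose or fell at 600 mOsm (limma, adjusted p under 0.05) by coding length and by non-coding length; dashed lines give the share over all transcripts tested, 3.87% and 9.11%. Falls reach 18.9% in the longest non-coding class, and rises and falls both reach their highest shares, 15.8% and 22.7%, above 1600 codons.

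Transcripts that fell in RNA also had lower footprints, beyond their RNA change. Footprints were measured for 800 of them, with a median footprint change of -1.85 and quartiles of -2.65 and -0.92, against a median RNA change of -0.50. Of these, 588 (73.5%) were at least 2-fold lower in footprints and 1 was 2-fold higher, where 36.3% and 3.21% of all transcripts kept in both assays were. Their median non-coding length was 2193 nt, against 1055 nt among the transcripts that neither rose nor fell. Within every class of non-coding length the difference was seen: the median footprint change of fallen and of neither was -0.89 and -0.02 up to 500 nt, -1.60 and -0.28 for 501 to 1000, -1.80 and -0.47 for 1001 to 2000, and -2.0 and -0.61 over 2000 nt. The fallen also had a lower median unstressed log2 efficiency than neither, 0.20 against 0.69. Their median coding length was longer, 572 against 424 codons. These 2 properties were not held fixed, and their part in the footprint difference was not tested. Under the other settings tried, including those without one library, the median of the fallen transcripts lay between -2.15 and -1.71.

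Transcripts that rose in RNA were split in footprints. The 341 with footprints had a median RNA change of 0.40 and a median footprint change of -0.23, between quartiles at -1.05 and 0.39. Footprints were 2-fold or more above unstressed cells for 26 (7.62%) and 2-fold or more below for 89 (26.1%), beside 3.21% and 36.3% of all transcripts kept in both assays. Efficiency was at least 2-fold lower for 131 (38.4%) and higher for 5 (1.47%), shares near the 35.3% and 2.49% over all of them. The median efficiency change of the 341 was nonetheless lower, at -0.70 against -0.45 over all. Their median footprint change of -0.23 was higher than the -0.45 over all. The median footprint change of risen transcripts is not stable: without unstressed replicate 1 it was 0.19, and without replicate 2 it was -0.56. Which transcripts were called as risen also changed between these settings. The 341 had a median RNA change of 0.24 at 500 mOsm and 0.43 at 700 mOsm, and the 800 that fell had -0.20 and -1.01, against the same unstressed libraries.

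Between osmolarities, RNA was also tested directly. From 500 to 600 mOsm 592 transcripts rose (6.38%) and 964 fell (10.4%). Without 600 mOsm replicate 1 these were 296 and 642, and without replicate 2, 314 and 648. From 600 to 700 mOsm 1620 rose (17.5%) and 3064 fell (33.0%), so the step to 700 mOsm called more RNA changes than the step from unstressed cells to 600 mOsm. The 3 comparisons share the 600 mOsm libraries, and the precision of the groups differs.

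The largest changes belonged to 4 transcripts, chosen because they had the largest rise and fall in each assay, so that their values are a description. For RNA the choice was made among called transcripts whose unstressed and 600 mOsm libraries did not overlap, as held for 54.9% of all 9275 tested. ENSMUST00000052678, of 2603 codons in 9100 nt, had the largest RNA rise. Its RNA was 30.9 and 32.2 scaled FPKM in unstressed cells, and 190.5 and 191.9 after 2 h at 600 mOsm. The 500 mOsm libraries had 93.4 and 97.3, and those of 700 mOsm 225.8 and 239.1. Each group was above the last, and the log2 change at 600 mOsm was 2.56 (SE 0.06, limma adjusted p = 1.23e-13). Its footprints went from 16.3 and 15.3 scaled RPKM to 44.4 and 43.8 at 600 mOsm, a log2 change of 1.43, so its efficiency was lower by 1.14 on the log2 scale (a change of -1.14).

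ENSMUST00000082411, the largest RNA fall, kept its footprints. It has 116 codons, and its transcript length of 348 nt leaves 0 nt of non-coding sequence. RNA was 1123 and 773.7 scaled FPKM in unstressed cells and 241.4 and 251.4 at 600 mOsm, a log2 change of -1.92 (SE 0.11, limma adjusted p = 1.02e-08). Footprints were 720.9 and 722.4 scaled RPKM in unstressed cells and 678.0 and 706.8 at 600 mOsm, a log2 change of -0.06, and efficiency was higher by 1.86. At 700 mOsm its footprints were 2582 and 2908.

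ENSMUST00000087085, of 1648 codons in 8805 nt, had the largest footprint rise. It had 16 footprint reads in each unstressed library, 17 and 28 after 500 mOsm, and 259 and 193 after 600 mOsm, and was unlisted in both at 700 mOsm. The 600 mOsm libraries were thus the only ones of these 4 groups with many footprints, at 16.4 and 14.6 scaled RPKM, and the log2 change was 3.55. Its RNA was hardly detected, with 41 and 39 reads in unstressed cells and 17 and 19 at 600 mOsm, was below the filter and was not tested.

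ENSMUST00000106182, of 163 codons in 1104 nt, had the largest footprint loss. It had 192 and 194 footprint reads in unstressed cells and 41 and 22 at 500 mOsm, and was unlisted in both libraries at 600 mOsm and at 700 mOsm, so no fold is given. Its RNA was 15.3 and 27.4 scaled FPKM in unstressed cells and 18.9 and 16.8 at 600 mOsm. The RNA groups overlapped, with a log2 change of -0.19 (SE 0.19, limma adjusted p = 0.594).

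**Figure D5:**
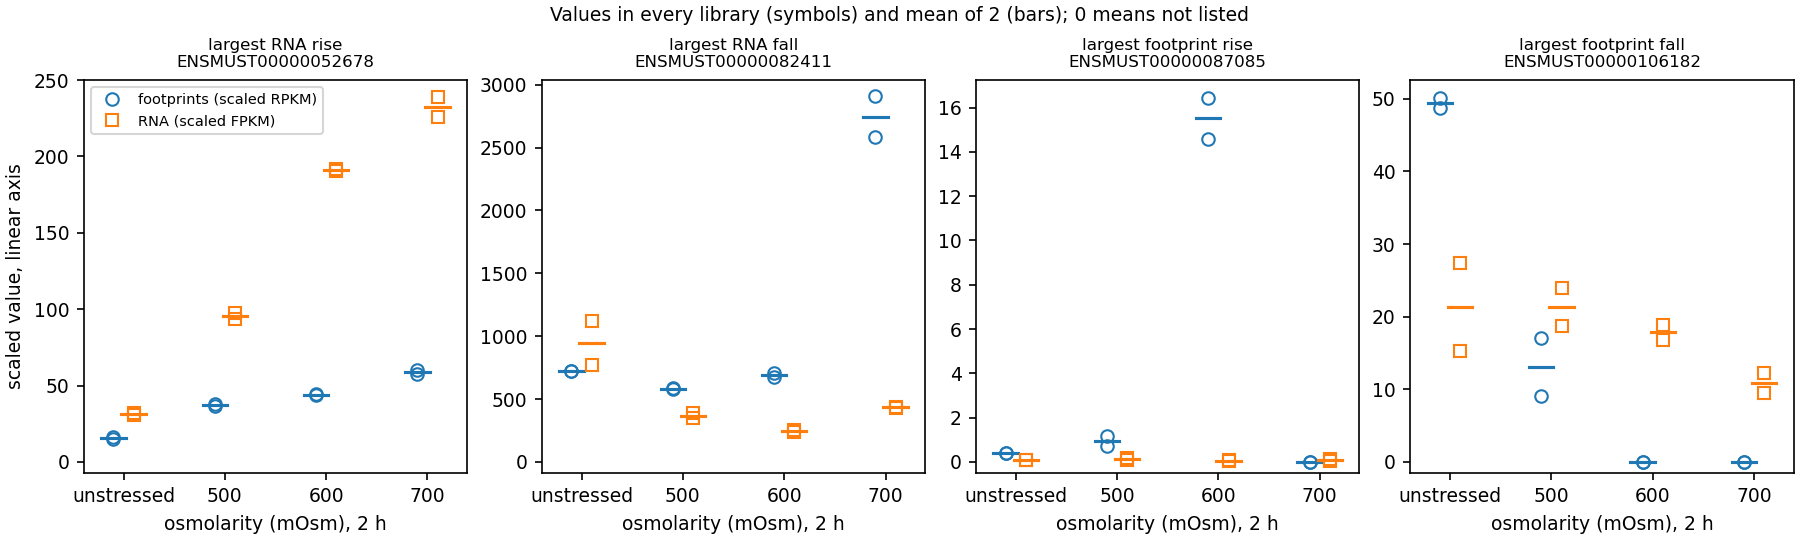
Scaled footprint RPKM (circles) and scaled RNA FPKM (squares) of 4 transcripts in every library of unstressed cells and of 500, 600 and 700 mOsm for 2 h, on linear axes that differ between panels; bars are the means of 2 libraries and 0 means not listed. RNA of the first transcript goes up at each step, the third has footprints of 16.4 and 14.6 at 600 mOsm alone, and the footprints of the fourth, 192 and 194 reads in unstressed cells, are unlisted from 600 mOsm up.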

How the data were processed

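The authors deposited 1 list per library, a transcript identifier and a value: RPKM for footprint libraries and FPKM for RNA libraries, per the file names. Per the submitters' processing notes, cutadapt, Bowtie, STAR and build GRCm38 were used; how reads were counted, and the annotation, is not stated in the labels or files. Per the labels' protocols, footprints came from gradient fractions digested with RNase I, and lysis buffer held cycloheximide. The deposited values behave as reads over a length and a library total, and both were solved for; reads were whole within a relative tolerance of 1e-09, largely by construction. Footprint lengths were multiples of 3 and were taken as coding length. The coding length fitted into the transcript length for 99.9% of the 11028 transcripts with both. Reads limit precision through counting error only.

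Libraries were scaled by median ratios over transcripts listed in all 18 libraries of an assay with a mean of at least 10. These were 4619 footprint and 5705 RNA transcripts. For footprints this leaves out transcripts unlisted under any stress, so the zero of the footprint changes is that of transcripts that stayed listed. Unlisted transcripts were set to 0. Changes are on log2(scaled value + 1). A mean scaled value of 2 or more was required (8849 footprints, 9275 RNA, 8446 both). RNA was tested two-sided with limma 3.58.1 in R 4.3.3, in 1 fit over all 18 RNA libraries with group precision weights, a mean-variance trend and Benjamini-Hochberg adjustment at 0.05. Footprints and efficiency were described by at least 2-fold changes with no test. Tables were made in Python 3.11.15, and the read recovery and the RNA fit were tested on simulated data. Transcripts were named by the largest change in each direction and assay, at most 2 identifiers each way. For RNA they had to pass the threshold with groups that did not overlap. For footprints they needed at least 100 reads over the 4 libraries and the same direction in both like-numbered pairs. The classes, lists and rules were chosen with earlier results of these data known, and the gene lists were not applied because identifiers could not be matched to genes. Replicate numbers were not used to pair libraries in the main RNA fit.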

Additional observations from a re-analysis of the deposited data

How the results depend on the processing

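The 359 transcripts that rose in RNA became 880 with equal library weights and 234 with the 2 compared groups alone, and the 845 that fell became 1405 with equal weights. Leaving out one library gave 81 to 333 that rose and 269 to 670 that fell; from 500 to 600 mOsm it gave 296 to 314 that rose and 642 to 648 that fell. The 331 higher footprints became 513 with values as deposited and 186 with at least 100 unstressed reads. The 210 higher efficiencies became 393 and 139 in the same settings, and 185 to 334 without one library. Counts of lower footprints and lower efficiencies stayed within 1.5 times. With limma, which takes the paired footprint libraries as replicates, 2161 footprints and 1537 efficiencies were higher, and with the replicate block 2168 and 1581. Deviations of same-numbered unstressed and 600 mOsm RNA libraries correlated at 0.08 (-0.31 to 0.31 over all pairs of groups), which cannot settle whether the numbers pair them. RNA with the replicate block gave 440 that rose and 949 that fell. Class medians near 0 changed sign: with values as deposited, footprints of non-coding length up to 500 nt had 0.037 and of the fourth efficiency quintile 0.016. Footprints of the highest footprint-level quintile had 0.11 as deposited, 0.036 with at least 100 unstressed reads, 0.0016 after thinning to equal depth, and -0.016 to 0.0022 without one library. Footprints of transcripts risen in RNA had -0.56 to 0.19 without one library, where the transcripts called as risen changed too. In the splits by efficiency, 3 of 60 recomputed medians by non-coding length and 5 of 74 by coding length changed sign, among them 0.43 to -0.69 for up to 100 codons in the fourth quintile with no filter. The causes were not tested beyond what each setting alters by construction. Depth limits the footprint libraries under stress: 388 transcripts differed at least 2-fold between the 2 libraries at 600 mOsm, against 17 in unstressed cells. The 700 mOsm libraries were shallower, with 734083 and 909760 reads, and 1254 transcripts differed as much between them.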
